A study of Mus musculus with 6 samples.

Results

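The clustered protocadherins are a family of cadherin-like cell surface proteins encoded side by side on mouse chromosome 18. They were taken here as every protein-coding gene whose symbol places it in the alpha, beta or gamma protocadherin cluster, and this rule found 57 of the 53465 genes in the count table. The alpha cluster supplied 14 members, among them the C-type genes Pcdhac1 and Pcdhac2. The beta cluster supplied 22. The gamma cluster supplied 21, of which 12 were gamma-A, 6 gamma-B and 3 C-type genes. All 57 lay on the plus strand. The rule used symbols and biotypes and no measured value, but the family was chosen with earlier results of these data known.

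Most clustered protocadherins bind an identical copy on a neighbouring cell. In neurons the set of isoforms made by a cell gives it a surface identity used in dendrite self-avoidance and in wiring. In the alpha and gamma clusters a variable exon, which encodes the extracellular part, the membrane span and a short cytoplasmic stretch, has its own promoter and is spliced to constant exons that encode a common cytoplasmic end. Most variable promoters are chosen at random by a cell through binding of CTCF and cohesin and contact with a distal enhancer, and they are held silent by DNA methylation and by SMCHD1. The C-type genes are not chosen in this random way. The family is best known in the nervous system, although some isoforms are also made in epithelial cells and carcinomas.

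Polyadenylated RNA of 4T1 cells, a mouse mammary carcinoma line grown in Balb/c mice, was sequenced as 3 libraries of the parental line (P) and 3 of the axitinib-resistant line (AxR). AxR cells came from spontaneous metastatic disease in mice given axitinib, a VEGF receptor tyrosine kinase inhibitor, at 100 mg/kg/day before and after removal of the primary tumor, and were then kept in culture for more than 2 months in 0.5 µM axitinib. P cells carry no treatment label and were vehicle-treated in the study's description, whereas the culture protocol given with every sample names 0.5 µM axitinib, so the drug content of the P medium cannot be settled from these sources. AxR is a single derived line, and P and AxR differ in passage through mice, in metastatic origin and in drug exposure together, and these cannot be told apart. Nothing states that the 3 libraries of a line were separate cultures, so p-values measure the spread between these libraries, which may be technical.

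The libraries held between 15495260 and 17294525 estimated counts. A limit of 3 counts, used below as the floor of detection, corresponded to between 0.171 and 0.196 CPM, the count scaled to a common library size. The lines differed widely across the whole transcriptome, and 63.5% of the 13550 genes tested passed an adjusted p of 0.05 in edgeR's quasi-likelihood test. Of the 10 epithelial markers 9 were tested, 7 rose and 2 fell, and their summed level was 2040 to 2270 CPM in P and 3290 to 3440 CPM in AxR. Summed leukocyte, endothelial and fibroblast markers stayed at or under 1.28 CPM in every library, and none of these markers passed the filter on low counts. Of the 6 lung epithelial markers Foxj1 alone was tested and rose (log2 fold change 2.72), and Scgb1a1 was at 0 in every library. Of 10 neuronal markers only Map2, a microtubule-associated protein that is also made outside neurons, was tested (log2 fold change -0.14, adjusted p = 0.0527), and Snap25, Stmn2 and Elavl4 were at 0 in every library.

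The 3 clusters differed in how much sequence their members share, which bears on every count below. On the GRCm38 build the alpha cluster occupied chr18:36930184-37187661, the beta cluster chr18:37264938-37524479 and the gamma cluster chr18:37661793-37841873. All 14 alpha members contained the same 3 constant coding segments of 59, 89 and 308 bases, 456 bases in all, at 37156155-37156213, 37159265-37159353 and 37184946-37185253. All 21 gamma members contained their own 3 constant coding segments of 59, 89 and 224 bases, 372 bases in all, at 37825021-37825079, 37833265-37833353 and 37839903-37840126. The beta members had no constant coding segment. With untranslated exons counted, between 2860 and 2864 exon bases of each alpha member and between 2116 and 3157 of each gamma member also belonged to another member. In the beta cluster only Pcdhb21 and Pcdhb22 overlapped, by 455 bases.

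**Figure D1:**
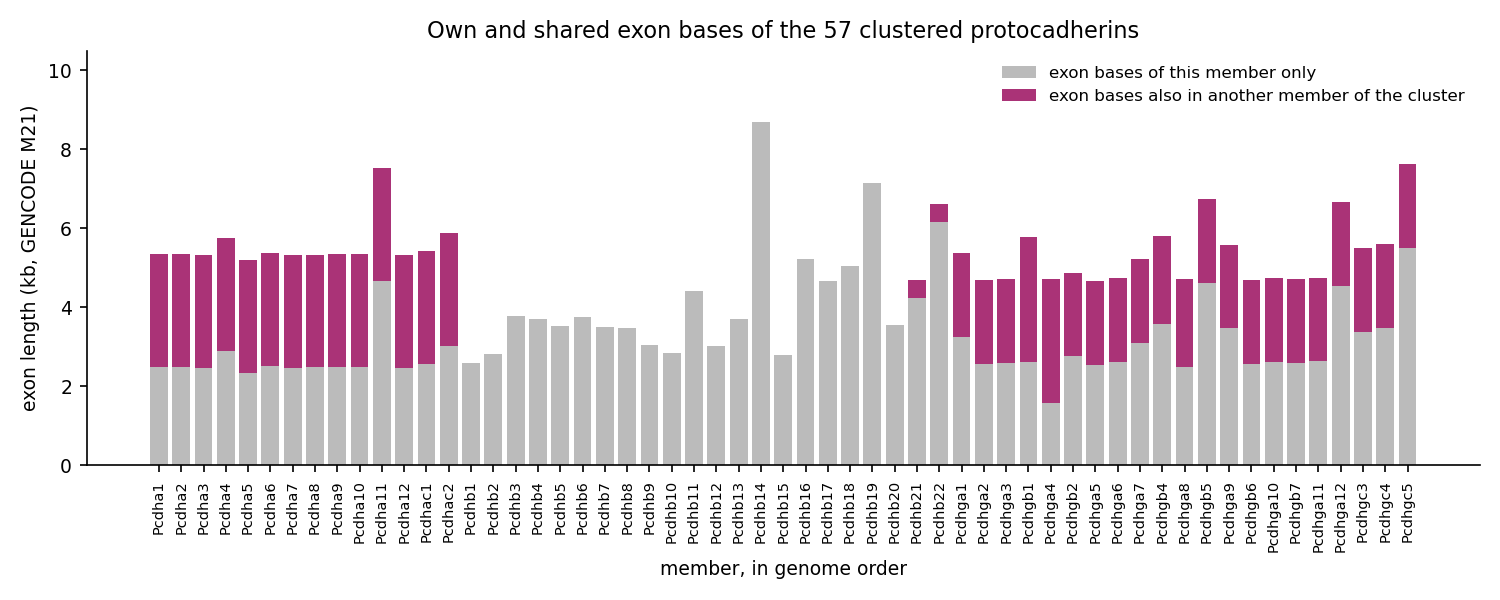
Exon length in kilobases (vertical axis, GENCODE M21) of each of the 57 members in genome order (horizontal axis), split into bases of that member alone (grey) and bases that also belong to another member (purple). Every alpha and gamma member has a large shared portion, whereas in the beta cluster only Pcdhb21 and Pcdhb22 share bases.

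A read that falls in a constant exon fits every member of its cluster, and RSEM, the program that made the counts, divides such a read among genes by likelihood. The division is visible as counts that are not whole numbers. In the gamma cluster 87 of 99 values above 0 were not whole (87.9%), against 14 of 101 in the beta cluster (13.9%). A gamma value is thus partly an estimate of how constant-exon reads divide, with errors that are linked between members, whereas most beta values are counts of reads assigned whole.

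Most of the family was silent or nearly so in both lines. Of the 57 members 13 had no count in any library, 10 more never exceeded 3 counts and 34 exceeded 3 counts in at least 1 library. More than 3 counts in every library were found for 16 members in P (9 beta and 7 gamma) and for 23 in AxR (12 beta and 11 gamma). A mean of at least 1 CPM was reached by 8 members in P (5 beta and 3 gamma) and by 10 in AxR (8 beta and 2 gamma).

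The alpha cluster was not detected. In 12 of its 14 members no library held a count, and both C-type alpha genes were among them. The only counts were a single read of Pcdha4 in P replicate 2 and a single read of Pcdha9 in AxR replicate 3. A count of 0 allows up to 3 counts, or 0.171 to 0.196 CPM depending on the library, so lower levels were not detectable at this depth. The 3 annotated models that run from the alpha into the gamma cluster also had a count of 0 in every library.

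**Figure D2:**
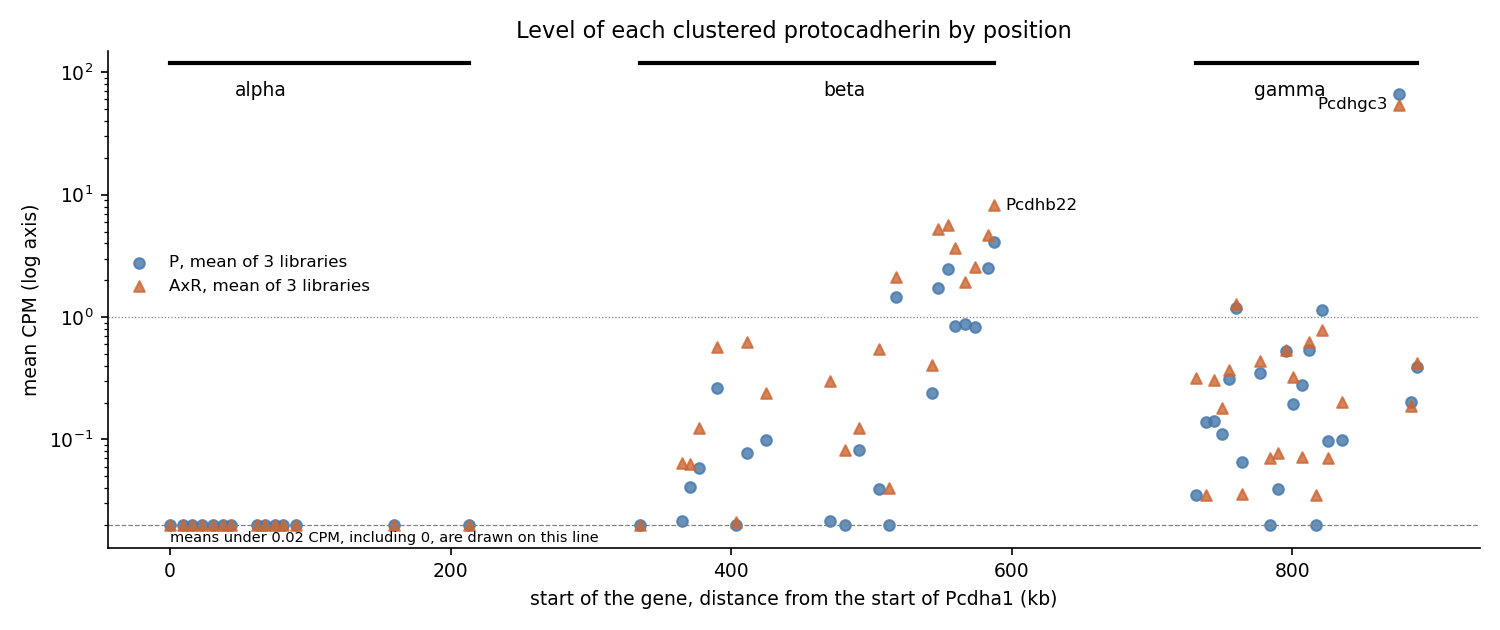
Mean level in CPM (vertical axis, logarithmic; means under 0.02, including 0, are drawn on the dashed line) of each member against the distance of its start from that of Pcdha1 in kilobases (horizontal axis), for P (circles) and AxR (triangles), 3 libraries each; the dotted line marks 1 CPM. Alpha members lie at the bottom, the beta members with the highest levels lie at the downstream end of their cluster, and Pcdhgc3 stands above all other members.

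Detection in the beta cluster was concentrated at its downstream end. The 8 beta members that passed the filter on low counts were Pcdhb14 and Pcdhb16 to Pcdhb22, the first and last of which span 76.8 kb. None of the 13 beta members upstream of Pcdhb14 passed it. These 8 genes held between 91.7% and 95.6% of the beta counts in P libraries and between 89.8% and 93.0% in AxR libraries. Per kilobase of exon, P levels among them ran from 0.122 CPM for Pcdhb19 to 0.618 CPM for Pcdhb22, and AxR levels from 0.243 CPM for Pcdhb14 to 1.24 CPM for Pcdhb22. The filter is not scaled for exon length. Upstream of Pcdhb14 the highest AxR levels per kilobase were 0.181 CPM for Pcdhb12, 0.180 for Pcdhb7 and 0.160 for Pcdhb5. The highest P level there was 0.075 CPM for Pcdhb5. These are low levels beside Pcdhgc3 of the gamma cluster, with 12.1 CPM per kilobase in P and 9.91 in AxR.

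In AxR 7 of the 12 tested members rose, all of them beta genes, and 1 fell, the gamma gene Pcdhgc3. Over all genes tested 32.8% rose and 30.8% fell. The libraries of the lines did not overlap for 9 of the 12, against 68.2% of all genes tested. The filter bears on these counts, because it asks for its minimum in any 3 libraries. Pcdhb18 and Pcdhb20 reached this minimum in every AxR library but not in every P library. Their P libraries alone would not have admitted them, which favours a higher value in AxR but does not fix it. Pcdhgb7 reached it in every P library but not in every AxR library, which favours a lower value in AxR in the same way. Under a filter that asks for at least 10 counts in every library, 8 members were fitted, of which 5 rose and 1 fell. The median log2 fold change over the 8 tested beta members was 1.16, beside 0.0058 over all genes tested.

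Among the tested members Pcdhb16, Pcdhb18 and Pcdhb20 had the highest fold changes. Beta protocadherins carry the same kind of extracellular cadherin repeats as the alpha and gamma isoforms and join them in mixed complexes on the membrane, but they lack the constant cytoplasmic end. Pcdhb18 (ENSMUSG00000048347.5, chr18:37489465-37494505) had 17, 9 and 15 counts in P and 69, 60 and 50 in AxR. Every AxR library lay above every P library, the mean level went from 0.844 ± 0.282 to 3.68 ± 0.779 CPM (SD, n = 3 per line), and the gene rose by 2.12 on the log2 scale (SE 0.277, adjusted p = 7.96e-06 in edgeR's quasi-likelihood test, Benjamini-Hochberg adjusted over every gene tested, as are all adjusted p below). Pcdhb20 (ENSMUSG00000046191.7, chr18:37504264-37507822) had 17, 9 and 14 counts in P and 29, 51.43 and 44 in AxR. The lines again did not overlap, with AxR replicate 1 the lowest of its line, and the log2 fold change was 1.62 (SE 0.311, adjusted p = 0.00031). Pcdhb16 (ENSMUSG00000047910.6, chr18:37477814-37483038) had 25, 28 and 31 counts in P and 87, 93 and 75 in AxR. Its lines were far apart, at 1.72 ± 0.266 and 5.24 ± 0.868 CPM, and it rose by 1.60 (SE 0.199, adjusted p = 4.7e-06).

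Pcdhb17, Pcdhb19, Pcdhb21 and Pcdhb22 rose by smaller amounts. Pcdhb17 (ENSMUSG00000046387.5, chr18:37484795-37489454), which ends just upstream of Pcdhb18, had 42, 36 and 43 counts in P and 105, 89.57 and 81 in AxR. No AxR library came near a P library, and the log2 fold change was 1.19 (SE 0.187, adjusted p = 4.97e-05). Pcdhb19 (ENSMUSG00000043313.6, chr18:37496991-37504128) had 17, 15 and 11 counts in P and 39, 28 and 27 in AxR. Its counts in AxR had the lowest sum among the 7 that rose, the lines did not overlap, and its log2 fold change was 1.13 (SE 0.291, adjusted p = 0.00323). The overlapping neighbours Pcdhb21 (ENSMUSG00000044022.5, chr18:37513621-37518325) and Pcdhb22 (ENSMUSG00000073591.4, chr18:37517871-37524479) share 9.67% and 6.88% of their exon bases with each other, and most of their values were not whole. Pcdhb21 had 41.05, 40 and 42.98 counts in P and 75.91, 74.06 and 79.71 in AxR, a log2 fold change of 0.89 (SE 0.166, adjusted p = 0.00024). Pcdhb22, the beta gene with the most counts in both lines, had 60.95, 78 and 62.02 in P and 150.09, 108.94 and 143.29 in AxR, a log2 fold change of 1.00 (SE 0.150, adjusted p = 3.14e-05). For both genes every AxR library lay above every P library.

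Pcdhb14 (ENSMUSG00000044043.4, chr18:37447656-37456350), the most upstream of the 8, had 25, 28 and 19 counts in P and 34, 38 and 31 in AxR. Its lines did not overlap, but its log2 fold change of 0.52 (SE 0.245, 95% interval 0.00075 to 1.05) did not pass the adjusted test (adjusted p = 0.0746). Without AxR replicate 3 it passed (log2 fold change 0.65, adjusted p = 0.0424).

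**Figure D3:**
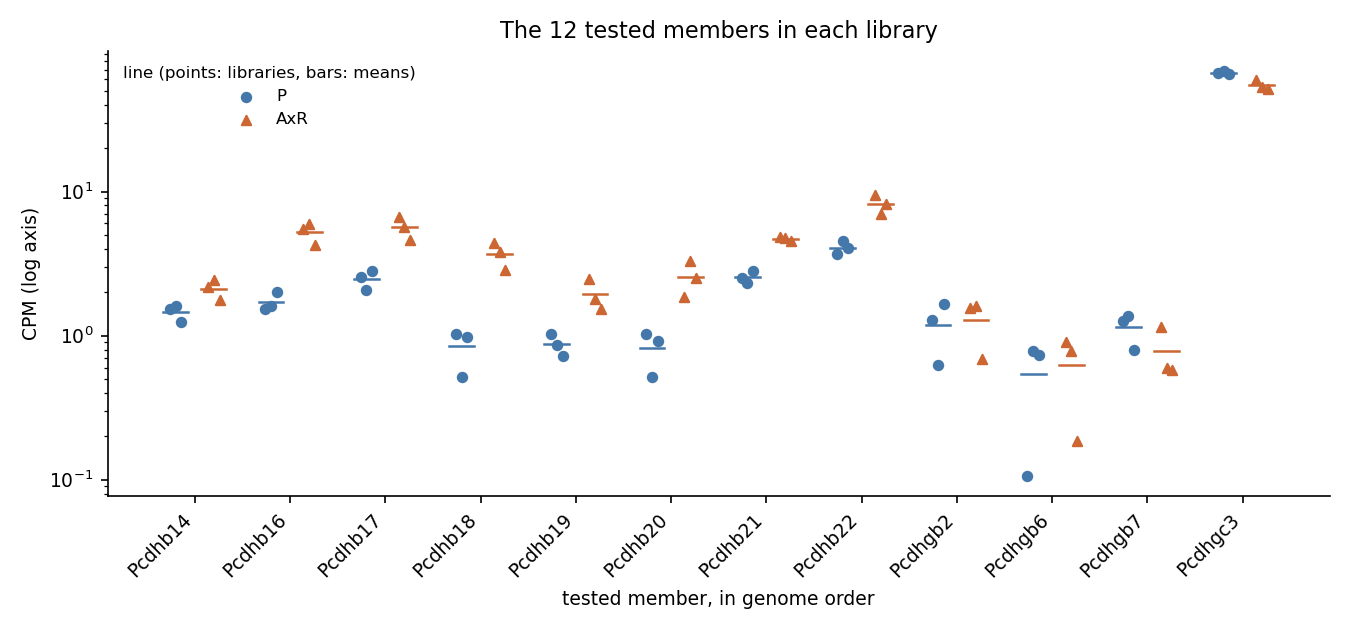
Level in CPM (vertical axis, logarithmic) of the 12 tested members in genome order (horizontal axis); points are libraries of P (circles) and AxR (triangles), and short bars are the means of 3 libraries. The AxR points lie above the P points for all 8 beta genes, below them for Pcdhgc3, and mix with them for Pcdhgb2, Pcdhgb6 and Pcdhgb7.

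Among the 14 beta members without a test, 7 exceeded 3 counts in some library. Pcdhb12 had 1, 1 and 0 counts in P and 10, 7 and 10 in AxR, so its summed counts stood in a ratio of 13.5 (95% counting interval 3.4 to 117). Pcdhb7 had 0, 4 and 0 counts in P and 7.46, 7 and 17 in AxR, a ratio of 7.77 (2.75 to 30.3). Pcdhb9 had 0, 0 and 1 in P and 7.54, 3 and 4 in AxR, a ratio of 15.0 (2.31 to 633). For these 3 genes no AxR library was at or below a P library. Pcdhb5 had 5, 4 and 4 counts in P and 10, 6 and 12 in AxR, a ratio of 2.16 (1.08 to 4.54), again without overlap of the lines. The intervals of Pcdhb8 (2.41, 0.789 to 8.71), Pcdhb11 (1.5, 0.356 to 7.24) and Pcdhb15 (1.67, 0.778 to 3.75) included 1, and their libraries overlapped. Intervals cover counting error only and not the spread between cultures. Pcdhb8, Pcdhb9, Pcdhb11 and Pcdhb12 exceeded 3 counts in AxR libraries only. Being listed here therefore favours a ratio above 1 for them but does not fix it. Of the others, Pcdhb1 had no count, and Pcdhb2, Pcdhb3, Pcdhb4, Pcdhb6, Pcdhb10 and Pcdhb13 had at most 3 in any library. When genes with any count were admitted to the edgeR fit, Pcdhb12, Pcdhb7 and Pcdhb9 were also called higher (adjusted p = 0.00012, 0.000263 and 0.00645), as was Pcdhga1 of the gamma cluster (0.0212). DESeq2 called the 3 beta genes (adjusted p = 0.0117, 0.0221 and 0.0474) and not Pcdhga1.

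The gamma cluster was carried by a single gene. Pcdhgc3 (ENSMUSG00000102918.1, chr18:37806364-37841873), the first of the C-type gamma genes in genome order, held between 91.8% and 92.3% of all gamma counts in P libraries and between 87.4% and 91.4% in AxR libraries. It had 1092.58, 1188.69 and 1000.04 counts in P and 932.68, 828.11 and 903.11 in AxR. Every AxR library lay below every P library in CPM, with means of 66.8 ± 1.74 in P and 54.5 ± 4.18 in AxR. The gene fell by 0.29 on the log2 scale (SE 0.0635, 95% interval -0.43 to -0.16, adjusted p = 0.000848), which left it the member with the highest level per kilobase in both lines. With 38.5% of its exon bases shared with other gamma members, part of its count rests on the division of constant-exon reads.

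Of the gamma-B genes 3 had enough counts for a test and none passed it. Pcdhgb2 had 21.10, 10.84 and 25.29 counts in P and 24.49, 25.34 and 12.05 in AxR, with a log2 fold change of 0.10 (95% interval -0.72 to 0.92, adjusted p = 0.834). Pcdhgb6 had 1.75, 13.54 and 11.23 counts in P and 14.31, 12.23 and 3.25 in AxR, a log2 fold change of 0.11 (-1.23 to 1.46, adjusted p = 0.883). In both genes 1 library of each line was far below the other libraries, and both intervals include changes of 0.7 on the log2 scale in either direction. Pcdhgb7 had 20.91, 23.59 and 12.09 counts in P and 18.21, 9.32 and 10.17 in AxR, a log2 fold change of -0.61 (-1.38 to 0.16, adjusted p = 0.156), and its lines overlapped. Without AxR replicate 1 it was called lower (log2 fold change -1.0, adjusted p = 0.0443). In that fit no AxR library reached the low-count minimum, so a lower value in AxR follows in part from the filter. Between 43.4% and 45.2% of the exon bases of these 3 genes are shared.

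The remaining gamma members were near the floor. Of the 17 without a test 15 exceeded 3 counts in some library, and the highest value among them was 11.54 counts, reached by Pcdhga6 and Pcdhga8 in AxR replicate 2. Pcdhga6 had 5.21, 6.72 and 5.35 counts in P and 3.46, 11.54 and 6.45 in AxR. Pcdhga8 had 8.69, 8.40 and 8.92 counts in P and 5.19, 11.54 and 9.68 in AxR, so the lines overlapped for both. Pcdhga1 had 1.75, 0 and 0 counts in P and 5.22, 4 and 6.49 in AxR, and Pcdhga9 had 5.22, 5.05 and 3.57 in P and 1.73, 1.65 and 0 in AxR. Pcdhga2 had 1.75, 3.38 and 1.80 counts in P and 0, 1.66 and 0 in AxR, and Pcdhga3 had 3.48, 1.68 and 1.79 in P and 5.20, 4.95 and 4.85 in AxR. In these 4 gamma-A genes the lines did not overlap, with AxR higher for Pcdhga1 and Pcdhga3 and lower for Pcdhga2 and Pcdhga9. None of them passed the filter of the main fit. In the edgeR fit without that filter only Pcdhga1 of these 4 was called. For Pcdhga2 the lines barely parted, at 0.1064 CPM in P replicate 1 and 0.1059 CPM in AxR replicate 2, both under the floor. Lines without overlap were common, at 68.2% of all genes tested. The other C-type genes were low as well. Pcdhgc4, which is needed for survival of some neurons, had 1.66, 5 and 3.41 counts in P and 3, 3.17 and 3 in AxR. Pcdhgc5 had 9.40, 5.79 and 4.01 in P and 4.14, 9.53 and 6.98 in AxR, and both genes overlapped between the lines. Pcdhga4, Pcdhga5, Pcdhga7, Pcdhga11, Pcdhga12, Pcdhgb1 and Pcdhgb5 had between 0 and 8.41 counts in every library, and Pcdhgb4 and Pcdhga10 never exceeded 3.

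A sum over a whole cluster does not depend on how reads are divided among its members, whereas a sum over some of its members does. The gamma sum leaves out Pcdhgb8, a pseudogene that shares the constant exons and can take part of their reads. The beta sum was 15.7, 15.3 and 16.2 CPM in P and 41.0, 37.2 and 33.6 CPM in AxR, with means of 15.8 ± 0.468 and 37.3 ± 3.70, or 2.37-fold. The lines were well apart. The 14 beta members that did not pass the filter showed the same direction when summed, at 0.946 ± 0.289 CPM in P and 3.22 ± 0.531 CPM in AxR, also without overlap. The gamma sum was 72.0, 74.8 and 71.0 CPM in P and 65.9, 60.4 and 56.2 CPM in AxR, with means of 72.6 ± 1.95 and 60.9 ± 4.85, a log2 ratio of -0.25. Without Pcdhgc3 the gamma sum was 5.86 ± 0.295 CPM in P and 6.37 ± 1.41 CPM in AxR, a log2 ratio of 0.12 with overlapping lines. The gamma-A sum (2.05 ± 0.365 and 2.49 ± 0.808 CPM) and the gamma-B sum (3.21 ± 0.381 and 3.27 ± 0.978 CPM) also overlapped between the lines.

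**Figure D4:**
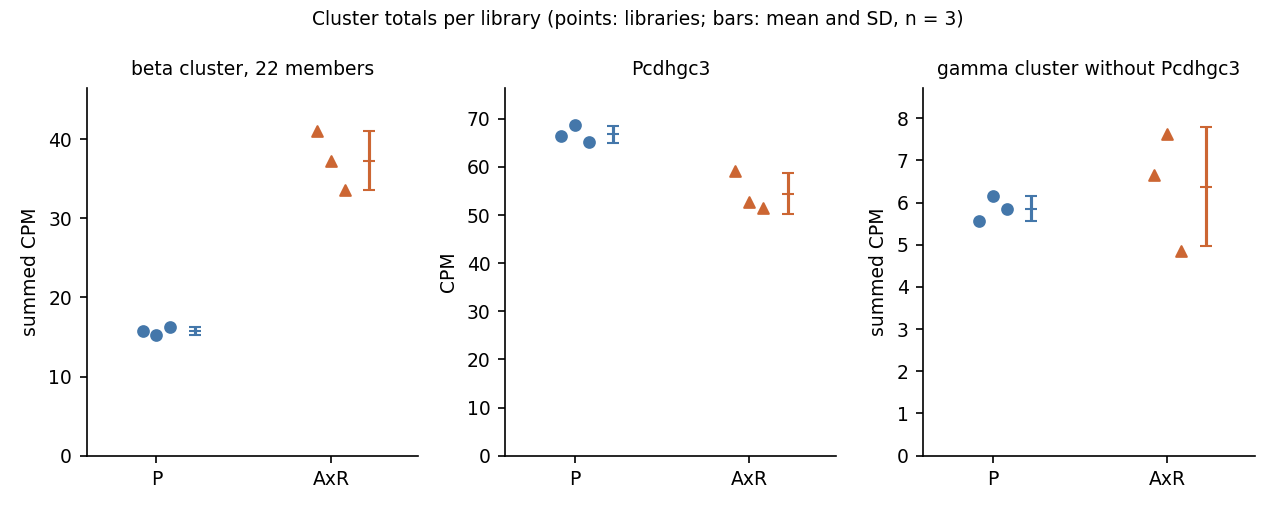
Level in CPM (vertical axes, each starting at 0) in the 3 P and 3 AxR libraries (horizontal axes) of the beta sum over 22 members, of Pcdhgc3, and of the gamma sum without Pcdhgc3; points are libraries, and bars give the mean and SD. The beta sum is higher in AxR, Pcdhgc3 is lower, and the rest of the gamma cluster overlaps between the lines.

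The make-up of the clustered protocadherin RNA therefore differed between the lines, while its sum over all 57 members did not separate them (88.4 ± 1.55 CPM in P and 98.2 ± 8.52 CPM in AxR, with overlap). Beta members made up 17.0% to 18.6% of this sum in P and 37.4% to 38.4% in AxR. Pcdhgc3 made up 74.7% to 76.1% in P and 54.1% to 57.2% in AxR. The ratio of Pcdhgc3 counts to beta counts, which needs no scaling between libraries, was 4.22, 4.49 and 4.02 in P and 1.44, 1.42 and 1.53 in AxR. These sums and ratios are given as descriptions, with no test, because they run over members chosen together. In bulk RNA, fewer cells that make a transcript and less of it per cell cannot be told apart, and the same holds for the share of cells making each beta isoform.

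The beta genes lie in a part of the genome that was higher in AxR as a whole. Of 306 other tested genes of chromosome 18, 232 rose and 21 fell, and their median log2 fold change was 0.49, against 0.0058 over all genes tested. Within 500 kb of the clusters 21 protein-coding genes were tested, of which 18 rose and 2 fell, with a median of 0.44. The highest were Cd14, an endotoxin co-receptor (log2 fold change 1.26), Gnpda1, a glucosamine-6-phosphate deaminase (0.96), Tmco6 (0.91) and Ankhd1 (0.85), and the genes that fell were Hbegf, a ligand of the EGF receptor (-1.09), and the nonclustered protocadherin Pcdh1 (-0.49). Taf7, a subunit of the transcription factor TFIID whose gene sits between the beta and gamma clusters, had 78, 85 and 89 counts in P and 150, 133 and 146 in AxR and rose by 0.77 (SE 0.130, adjusted p = 1.00e-04). The nearest tested genes outside the clusters were Zmat2 on the alpha side (0.72, adjusted p = 2.47e-06) and the formin gene Diaph1 on the gamma side (0.44, adjusted p = 2.09e-06).

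Measured against the chromosome 18 median instead of 0, 6 beta genes were higher in AxR and Pcdhgc3 lay further down. Under this reference 77.3% of all genes tested passed in either direction. The median of all genes tested, 0.0058, lies below the reference, so this share includes genes that passed as lower. The share that passed as higher was not counted. Pcdhb18 lay 1.63 above it (adjusted p = 7.42e-05), Pcdhb20 1.13 (0.00404), Pcdhb16 1.11 (1.18e-04), Pcdhb17 0.70 (0.00331), Pcdhb22 0.51 (0.00633) and Pcdhb21 0.40 (0.0404). Pcdhb19 no longer passed (0.64, adjusted p = 0.0587), and Pcdhb14 lay at 0.03 (adjusted p = 0.911). Pcdhgc3 lay 0.79 below the chromosome's median (adjusted p = 1.89e-08). Pcdhgb7, which was not called against 0, passed against this reference at -1.10 (adjusted p = 0.0118), with the limit that not every AxR library reached the low-count minimum. Pcdhgb2 and Pcdhgb6 turned to -0.39 and -0.37 and did not pass (adjusted p = 0.362 and 0.593). The part of the chromosome-wide difference in the beta increase was not tested.

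**Figure D5:**
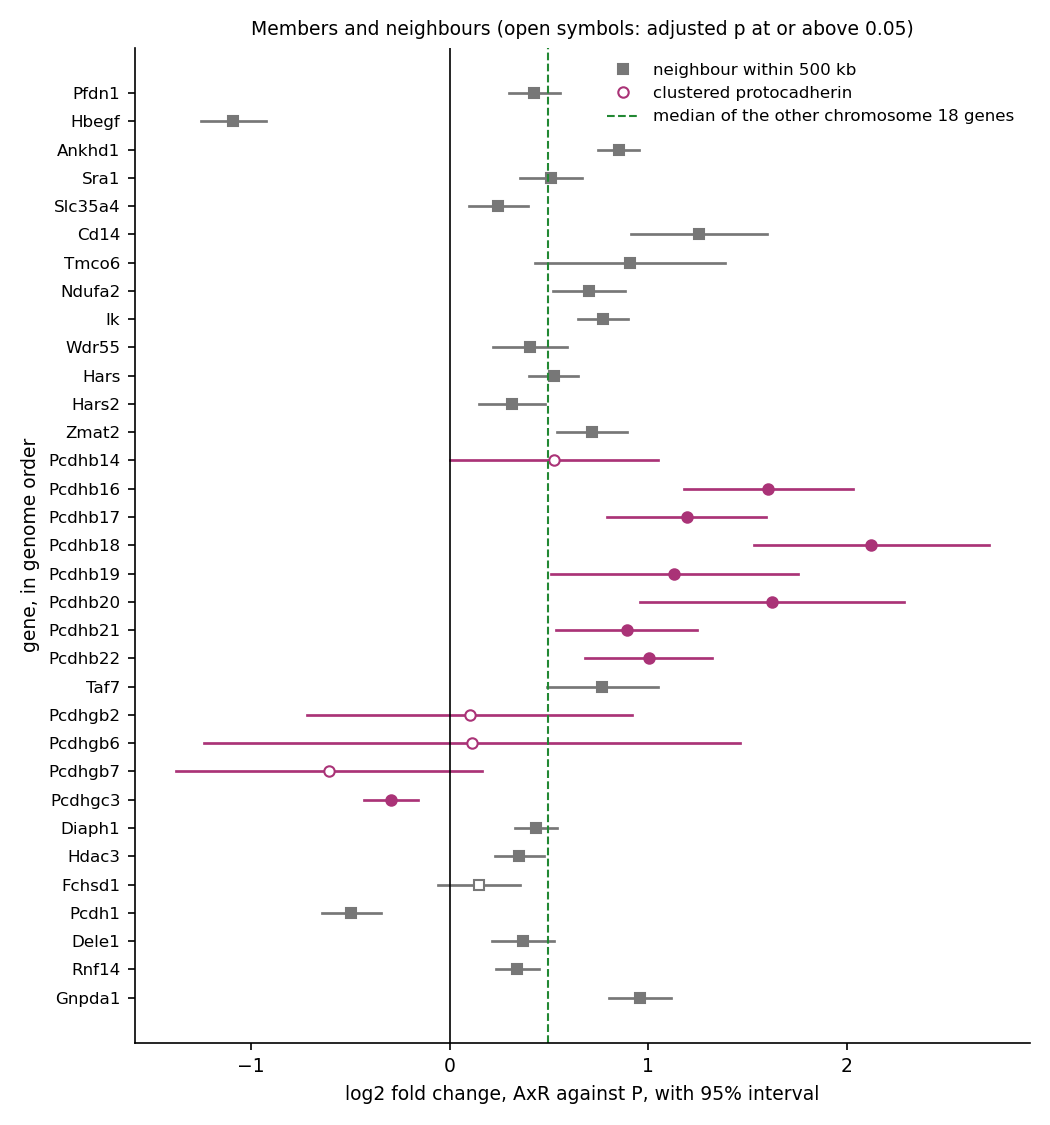
Log2 fold change of AxR against P with its 95% interval (horizontal axis) for the 12 tested members (purple circles) and the tested protein-coding neighbours within 500 kb (grey squares), in genome order (vertical axis); open symbols did not pass an adjusted p of 0.05, and the dashed line is the median of 306 other chromosome 18 genes, at 0.49. Pcdhb16, Pcdhb18 and Pcdhb20 lie furthest to the right, and Pcdhgc3 lies left of 0 between neighbours that rose.

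The nonclustered protocadherins, single genes with a similar extracellular part, were mostly silent too. Of the 12 in the list 6 had no count, and only Pcdh1, an epithelial adhesion protein, was tested. It had 76.46, 82.33 and 73.29 CPM in P and 50.87, 53.25 and 60.53 CPM in AxR and fell by 0.49 (SE 0.0700, adjusted p = 1.79e-05). Per kilobase of exon Pcdh1 stood at 8.79 CPM in P and 6.24 in AxR, below Pcdhgc3 and above every beta gene in both lines, and both Pcdh1 and Pcdhgc3 fell.

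Genes known to set the choice and silencing of clustered protocadherin promoters were all measured, and they moved in both directions. Of 24 such genes all were tested, 9 rose and 8 fell, with a median log2 fold change of -0.0042 and 70.8% called, beside 63.5% of all genes. Ctcf, which binds the variable promoters and the enhancers, went from 217 ± 3.22 to 181 ± 4.28 CPM and fell by 0.26 (adjusted p = 1.83e-04). The cohesin subunit Rad21 rose by 0.25 (adjusted p = 9.11e-04), Stag2 rose by 0.49 (5.26e-06), and its alternative Stag1 and the cohesin-associated Pds5b fell by 0.43 and 0.33 (4.14e-06 and 6.15e-05). Smchd1, a silencer of the clusters, rose by 0.26 (adjusted p = 0.00115), as did Trim28, a corepressor (0.44, adjusted p = 2.8e-06), and the chromatin remodeler Hells (0.54, adjusted p = 6.11e-04). Of the DNA methyltransferases, Dnmt3b, which methylates these promoters in the embryo, went from 5.07 ± 1.36 to 2.70 ± 0.324 CPM and fell by 0.91 (SE 0.204, adjusted p = 0.00119), while Dnmt3a rose by 0.51 (adjusted p = 9.78e-07). Zfp143, a promoter-binding partner of CTCF, fell by 0.43 (adjusted p = 7.19e-05). Each of these changes was smaller than 1 on the log2 scale.

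Proteases and cytoplasmic partners of protocadherins were measured as the last list. Of 21 genes 19 were tested, 4 rose and 9 fell, with a median of -0.17 and 68.4% called, beside a median of 0.0058 and 63.5% called over all genes tested. The tyrosine kinase Fyn rose by 0.84 (adjusted p = 6.86e-08), the WAVE complex genes Wasf1 and Cyfip1 by 0.36 and 0.33 (0.00138 and 6.6e-05) and the gamma-secretase subunit Aph1a by 0.27 (2.76e-04). The gamma-secretase subunit Psen2 fell by 0.90 (adjusted p = 1.04e-06), the WAVE complex gene Abi2 by 0.50 (9.42e-06), the GTPase gene Rac1 by 0.39 (3.17e-06) and Ptk2, the focal adhesion kinase, which gamma protocadherins bind and inhibit, by 0.34 (1.39e-05). Adam10, which sheds the extracellular part of gamma protocadherins, went from 186 ± 10.2 to 202 ± 18.6 CPM and did not pass (log2 fold change 0.12, adjusted p = 0.119).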

How the data were processed

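The authors aligned reads of stranded poly(A) libraries to GRCm38 with STAR 2.6.0a and GENCODE M16, after checks with FastQC 0.11.5, and deposited estimated counts per gene from RSEM 1.3.1. Whether RSEM was told the strand is not given in the sources used here. RSEM divides ambiguous reads by likelihood, so 10.3% to 10.7% of a library's values were not whole.

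Counts were rounded, filtered with filterByExpr (a minimum of 0.615 CPM in 3 libraries), normalized by upper quartile, as in the study, and compared between lines in edgeR 4.0.16 (R 4.3.3; quasi-likelihood F test), with line as the only term, robust dispersions and Benjamini-Hochberg adjustment over 13550 genes at 0.05. The fit was tested on simulated counts in which all genes had the same dispersion. Only a small set of genes with higher counts changed there, in both directions. That test does not cover members with low counts, nor lines in which most genes differ, as they do here. CPM values use the normalized library size. Positions, biotypes and exons came from GENCODE M21, which held 53274 of the 53465 identifiers. It gives 2 identifiers the symbol Pcdha11, of which the one at the position of Pcdha10 is called Pcdha10 here. Pcdhgb8 is a polymorphic pseudogene there and was not counted as a member. For the chromosome 18 reference the median log2 fold change of its other genes was set as an offset of the AxR libraries. Ratios of untested beta genes have exact counting intervals.

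The genes named are all members over 3 counts in some library, the tested nonclustered protocadherins, genes within or next to the clusters, and, from the lists of regulators, partners and neighbours, up to 4 called genes with the highest and 4 with the lowest fold changes. Ctcf, Rad21, Smchd1 and Dnmt3b were always named, and Adam10 and BC037039 were picked with their values in view. The members and lists were chosen with earlier results of these data known. Alternatives were TMM and library size scaling, DESeq2 1.42.0, limma-voom (limma 3.58.1), other filters and thresholds, unrounded counts, a replicate block and leaving out each library.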

Additional observations from a re-analysis of the deposited data

How the results depend on the processing

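The 7 beta members called higher and Pcdhgc3 called lower kept their calls under TMM and library size scaling, limma-voom, DESeq2, unrounded counts, the replicate block and without any 1 library. With at least 10 counts in every library Pcdhb18 and Pcdhb20 were not fitted, and against the chromosome 18 median Pcdhb19 was lost, as given above. Without a low-count filter 11 members were called higher in place of 7, and 2 nonclustered protocadherins lower in place of 1. Leaving out each library in turn gave 7 to 8 members higher and 1 to 2 lower. The second was Pcdhgb7, without AxR replicate 1, and the eighth was Pcdhb5 without AxR replicate 2 or Pcdhb14 without AxR replicate 3.

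When a log2 fold change of 1 or more in size was also required, 6 members stayed higher, as Pcdhb21 lost its call, and Pcdhgc3, Pcdh1, all regulators and all partners lost theirs (0 members lower, and 0 higher and 0 lower in each list), the neighbours kept 1 higher and 1 lower, and the other chromosome 18 genes 43 higher and 12 lower. The gamma sum turned from -0.25 to 0.12 without Pcdhgc3. More than 10 counts in every library was reached by 9 members in P and 10 in AxR, a mean of at least 0.5 CPM by 13 in P and 16 in AxR, and a mean of at least 2 CPM by 4 in P. Pcdhgb2 and Pcdhgb6, which were not called, changed sign. Pcdhgb2 was at -0.21 without P replicate 2, at -0.05 and -0.10 without AxR replicates 1 and 2 and at -0.39 against the chromosome's median, and its range without any 1 library was -0.21 to 0.42. Pcdhgb6 was at -0.35 without P replicate 1, at -0.27 and -0.09 without AxR replicates 1 and 2 and at -0.37 against that median, and its range without any 1 library was -0.35 to 0.59. The cause was not tested.

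Deviations of same-numbered libraries from their line's mean correlated at -0.0213, -0.0061 and -0.0217, so no sign of pairing by replicate number was seen. Whether the libraries were made in pairs cannot be settled from this. With the number as a block 7 members were higher and 1 lower, and 8327 genes were called in place of 8608. Low counts kept 45 members out of the main test.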

Other observations

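Other transcripts within and between the clusters had values of their own. Gm8242, a pseudogene between the beta and gamma clusters, was tested and did not pass (log2 fold change 0.19, adjusted p = 0.668 by edgeR). Pcdhgb8, annotated as a polymorphic pseudogene within the gamma cluster and sharing its constant exons, had 30.12, 34.22 and 27.32 counts in P and 38.79, 39.83 and 37.72 in AxR, a log2 fold change of 0.37 that did not pass (adjusted p = 0.140 by edgeR). The antisense gene BC037039, which overlaps the start of Pcdhgc3 on the other strand, had 35.65, 25.34 and 24.11 counts in P and 0, 16.50 and 9.10 in AxR. Its log2 fold change was -1.75 (SE 0.593, edgeR adjusted p = 0.0259), with AxR replicate 1 at 0. It reached the low-count minimum in every P library but not in every AxR library, which favours a lower value in AxR but does not fix it. Since it is not known whether strand was used in counting, reads of BC037039 and of Pcdhgc3 cannot be told apart with certainty.

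Upstream of the gamma cluster, Slc25a2, a mitochondrial ornithine carrier, had no count in P and 7, 2 and 1 in AxR, and the noncoding gene 3222401L13Rik had 0, 0 and 1 in P and 9, 4 and 2 in AxR. Neither was tested.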
